A study of Sus scrofa with 36 samples.

Results

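The hearts of newborn pigs at postnatal day 3 (P3) and postnatal day 7 (P7) were compared by their microRNAs (miRNAs), in 3 small RNA libraries at each age. These 6 libraries were taken from 12 small RNA columns that cover 4 ages, and they were chosen by age and company alone, not by any measured value. The pigs were domestic Yorkshire animals, fed normally and given no treatment. The study used both sexes at each age over all its batches, but the sex of the animals behind these 6 libraries is not given. Each library came from the heart of a different animal, so no animal was followed over time, and age is the only labelled difference between the groups. All 6 belong to the batch sequenced by CD Genomics (cd). The small RNA table names 411 mature miRNAs. Of these, 249 reached 10 counts in 3 or more of the 6 libraries and were tested, 162 were not tested, and 96 of those had no count in any of the 6. Levels are given in CPM, the count of a miRNA divided by the scaled total of its library, and a fold change is P7 over P3 on the log2 scale unless stated otherwise.

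A miRNA is an RNA of about the length of a short primer that guides Argonaute proteins to messenger RNAs, which are then repressed or degraded. Most are cut from a hairpin precursor whose strands give a 5p and a 3p arm, and usually the more abundant arm is the one loaded. In the heart, miR-1, miR-133 and miR-499 are abundant in cardiomyocytes, the miR-143/145 pair is typical of smooth muscle, and miR-126 of endothelium. Several heart miRNAs lie inside introns of myosin heavy chain genes and are made with their transcripts. Pig hearts lose much of their ability to regenerate in the first days after birth.

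The libraries held from 2921132 to 5664506 counts on miRNAs, with the lowest total in replicate 6 of P3. As labelled heart tissue, they were dominated by miR-1, which took between 30.7% and 38.5% of the counts of a library, and the 5 most abundant miRNAs together took 61.8% to 66.1%. Few markers set for other organs had a name in the small RNA table, and of these some were at or near 0 and miR-9 was not. Wider lists also held miRNAs well above 0. Over all 6 libraries miR-192 of the liver and gut list averaged 396 CPM, and miR-7 and miR-128 of the neural list 1201 and 817 CPM. The liver miRNA miR-122 was between 0.585 and 2.11 CPM, and the brain miRNA miR-124a was at 0 in all 6 libraries. Of the epithelial marker set only miR-205 had a name in the table, and it reached at most 0.293 CPM. The other brain marker, miR-9, was present in every library, at 84.4 to 110.4 CPM at P3 and 137 to 156 CPM at P7, and the part of nerve cells in this was not tested. In bulk tissue, fewer cells of a type and less RNA per cell cannot be told apart.

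Replicate 6 of P3 stood apart from the other 2 P3 libraries. On the first principal component of log2 CPM (46.8% of the variance) replicates 4 and 5 of P3 were at −5.40 and −6.00, the P7 libraries lay between 3.34 and 3.68, and replicate 6 of P3 was at 0.78. On the second component (21.97%) it was alone at −6.22, and the library nearest to it was replicate 4 of P7. For 143 of the 249 miRNAs (57.4%) its level was nearer to the P7 mean than to the mean of the other P3 libraries. The share of the variance between the ages was 39.9%, and an exact permutation test of it gave p = 0.1, the smallest value that 3 libraries against 3 allow.

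**Figure D1:**
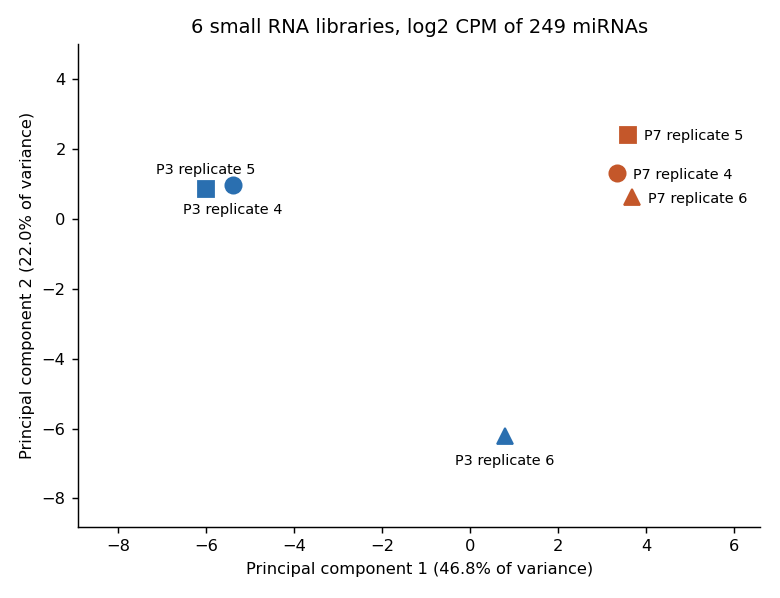
First and second principal components of the log2 CPM of 249 miRNAs, with each point a library, coloured by age and shaped by replicate number. The 3 P7 libraries sit together between 3.34 and 3.68 on the first component, replicates 4 and 5 of P3 near −6, and replicate 6 of P3 at 0.78 and alone at −6.22 on the second.

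Between P3 and P7, 9 of the 249 miRNAs (3.61%) changed at an adjusted p under 0.05 by edgeR's quasi-likelihood test with Benjamini-Hochberg adjustment. MiR-486, miR-151-5p, miR-342 and miR-425-5p rose, and both arms of miR-708, miR-504, miR-148a-3p and miR-208b fell. The ranges of the ages did not overlap for these 9, which was also so for 73 of all 249 miRNAs (29.3%), 41 higher at P7 (16.5%) and 32 lower (12.9%). At an unadjusted p under 0.05 there were 70 miRNAs, 41 higher and 29 lower. The study set cutoffs for circRNAs on the unadjusted p and the log2 change. Taken over to edgeR's values for these miRNAs, with a p of at most 0.05 and a log2 change beyond 0.5 in either direction, they passed 60 (24.1%), 34 higher and 26 lower. The median log2 fold change of all 249 was 0.0083, with quartiles at −0.23 and 0.33. The scaling centres these values, so they do not show whether the total amount of miRNA differed between the ages.

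The number of calls depended strongly on which libraries entered. Without replicate 6 of P3, 62 miRNAs passed (24.9%), 38 higher (15.3%) and 24 lower (9.64%), and these included all 9. Without replicate 4 of P3, 2 passed, and without replicate 6 of P7, 3. None passed edgeR's test without replicate 5 of P3, replicate 4 of P7 or replicate 5 of P7, where 48, 40 and 42 had an unadjusted p under 0.05. The direction of each of the 9 was the same in all 6 of these fits, with an adjusted p of up to 0.179.

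Of the miRNAs that rose, miR-486, which is abundant in erythroid cells and striated muscle, had the largest change. Its level was 479, 594 and 762 CPM in the P3 libraries and 1551, 1409.8 and 1176 CPM in the P7 libraries. The lowest P7 library lay well above the highest P3 library, and the means were 612 ± 142 CPM and 1379 ± 189.7 CPM (SD, n = 3 each). This was a log2 change of 1.17 (SE 0.20, adjusted p = 0.0353), or 2.26-fold, and it stayed between 1.00 and 1.36 when any single library was left out.

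MiR-151-5p, made from an intron of the focal adhesion kinase gene PTK2 in mammals, was at 83.4, 75.3 and 92.0 CPM at P3 and at 139, 138 and 160.4 CPM at P7. Every P7 library exceeded every P3 library, and the log2 fold change was 0.80 (SE 0.17, adjusted p = 0.0429). MiR-342, known from lymphocytes and hosted by the gene EVL, was at 82.2, 83.3 and 76.7 CPM at P3 and at 140.1, 121 and 141 CPM at P7. The P3 mean was 80.7 ± 3.53 CPM and the P7 mean 134 ± 11.5 CPM (SD, n = 3 each), and it rose by 0.73 on the log2 scale (SE 0.16, adjusted p = 0.0429). MiR-425-5p, whose precursor neighbours that of miR-191, went from 151, 129 and 146 CPM to 210.2, 231 and 261 CPM. The groups were again separate, with a log2 change of 0.72 (SE 0.16, adjusted p = 0.0429).

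**Figure D2:**
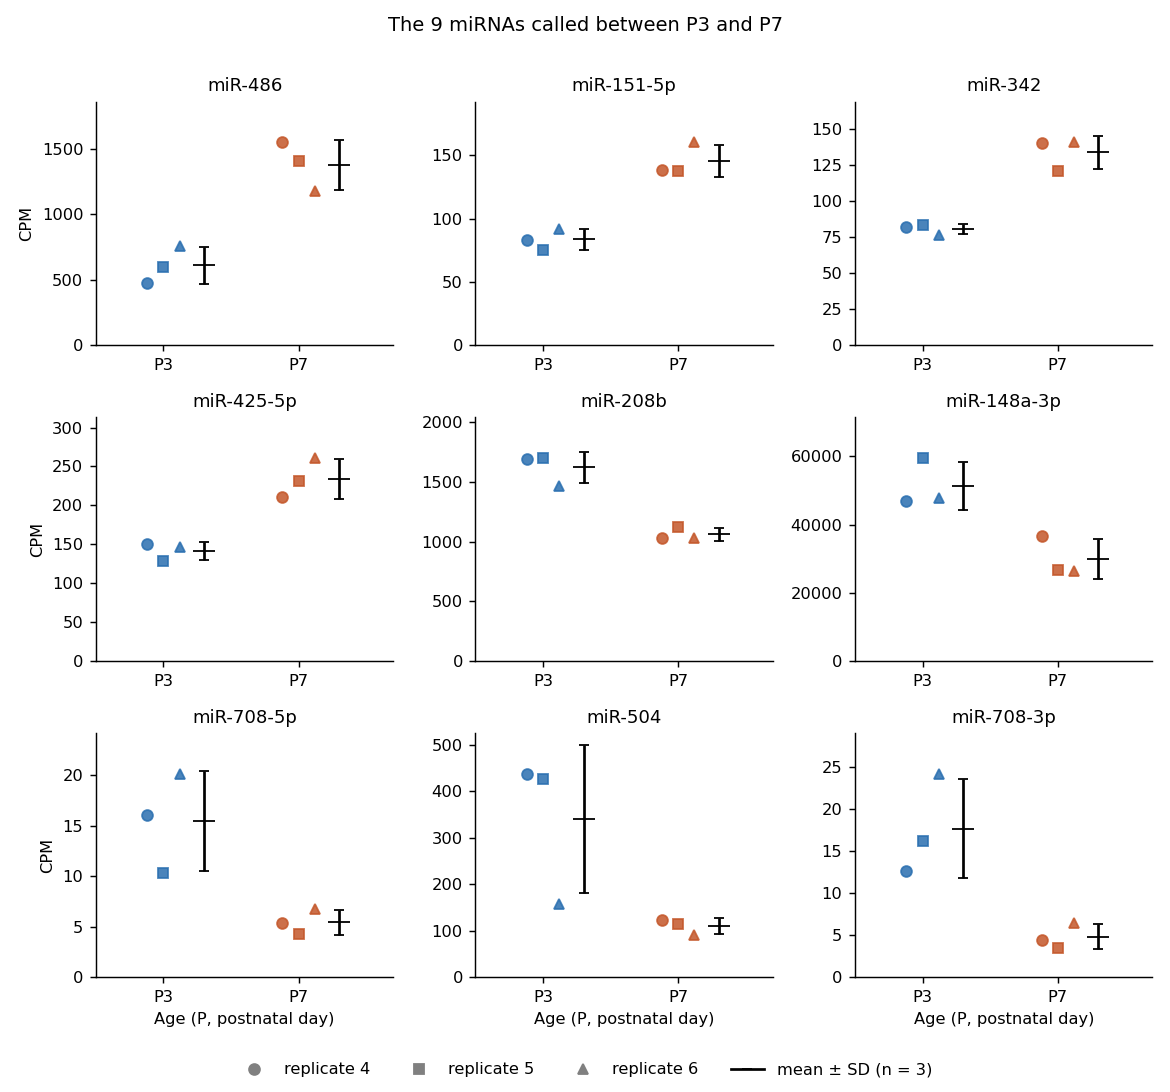
CPM of the 9 miRNAs called between P3 and P7 in each of the 6 libraries (linear axes from 0), with the replicate number as the shape and the mean ± SD of 3 libraries in black. In all 9 panels the P3 and P7 points do not overlap, and for miR-504 the P3 library at 156 CPM lies far below the other P3 libraries at 437 and 426 CPM.

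MiR-708, made from an intron of the teneurin gene TENM4, fell in both of its arms. The 3p arm was at 12.7, 16.2 and 24.2 CPM at P3 and at 4.46, 3.52 and 6.44 CPM at P7. The 5p arm was at 16.1, 10.3 and 20.1 CPM at P3 and at 5.31, 4.26 and 6.73 CPM at P7. Both arms were thus lower in every P7 library, 3.70-fold for the 3p arm (log2 fold change −1.89, SE 0.33, adjusted p = 0.0353) and 2.84-fold for the 5p arm (−1.51, SE 0.32, adjusted p = 0.0429). These are scarce miRNAs, ranked 202 and 205 of 249 by mean level, with 71 and 59 counts in replicate 6 of P3.

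MiR-504, hosted by the fibroblast growth factor gene FGF13, was at 437, 426 and 156 CPM at P3 and at 123, 115 and 90.4 CPM at P7. It is the member of the 9 for which replicate 6 of P3 lay nearer to P7 than to its own age, and the P3 spread was accordingly wide, 339.6 ± 159 CPM (SD, n = 3). The log2 fold change was −1.63 (SE 0.35, adjusted p = 0.0429) with that library and −1.98 without it.

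MiR-148a-3p, a miRNA known to target the DNA methyltransferase DNMT1, was the fifth most abundant of the 249. Its level went from 46868, 59509.5 and 47764 CPM at P3 to 36694, 26832 and 26518 CPM at P7. The P3 mean was 51381 ± 7054 CPM and the P7 mean 30015 ± 5787 CPM (SD, n = 3 each). The log2 fold change was −0.78, with an SE of 0.16 and an adjusted p of 0.0429. Its relatives miR-148b-3p and miR-152, which were looked at after their values were seen, did not pass. The log2 fold change of miR-148b-3p was −0.67 (SE 0.19, adjusted p = 0.0635) and that of miR-152 was −0.41 (adjusted p = 0.103), and for both the P7 libraries were all below the P3 libraries.

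MiR-208b, which lies in an intron of MYH7, the gene of the slow β-myosin heavy chain, was at 1697, 1700.4 and 1469 CPM at P3 and at 1028, 1125 and 1029.9 CPM at P7. It had the smallest fold change of the 9 and a small spread, 1622 ± 133 CPM against 1061 ± 55.9 CPM (SD, n = 3 each). On the log2 scale miR-208b changed by −0.61 (SE 0.14, adjusted p = 0.0429).

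The other ages, which played no part in choosing the 9, place these levels in time, and are given on a scale set over all 12 cd libraries. MiR-151-5p was at 75.8 ± 14.0 CPM at P1, 78.9 ± 8.39 at P3, 136 ± 8.41 at P7 and 82.1 ± 9.42 at P28 (SD, n = 3 each), so P7 alone was high. MiR-342 ran in the same way, with 66.0 ± 11.0, 76.2 ± 3.91, 125 ± 11.6 and 76.6 ± 6.94 CPM. MiR-425-5p was at 135 ± 11.4, 134 ± 7.98, 219 ± 16.7 and 161 ± 22.9 CPM. For these 3 miRNAs each P7 library lay above each of the 9 libraries of the other ages. For miR-504 and miR-148a-3p each P7 library lay below all 9, although the P7 library of miR-148a-3p at 35561 CPM came close to a P28 library at 38927 CPM.

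MiR-486, in contrast, was still high at P28, with 1112 ± 116 CPM beside 1297 ± 219 CPM at P7 (SD, n = 3 each), and the ranges of these ages overlapped. MiR-208b and both arms of miR-708 had their lowest mean at P7, and their P7 ranges overlapped that of at least 1 other age. In all, 5 of the 9 had P7 outside the range of the other ages, against 23 of the 249 tested (9.24%). The P3 against P7 part of this comparison was fixed by the choice of the 9, and no test was made of it.

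**Figure D3:**
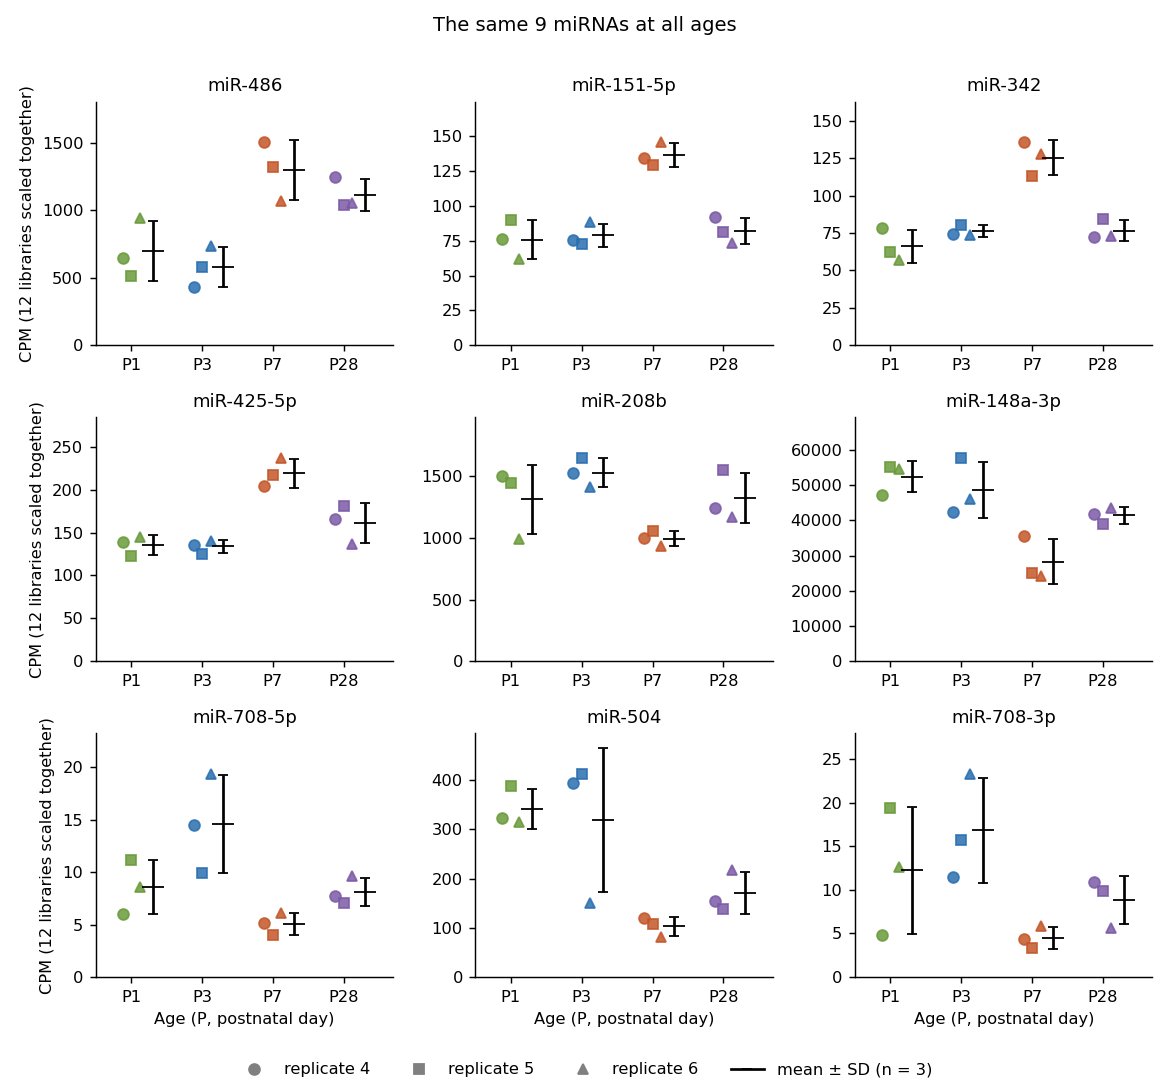
CPM of the same 9 miRNAs at P1, P3, P7 and P28, 3 libraries per age, on a scale set over all 12 cd libraries (linear axes from 0), with the mean ± SD in black. MiR-151-5p, miR-342 and miR-425-5p are higher at P7 than in any library of the other ages, miR-504 and miR-148a-3p are lower, and miR-486 is high at both P7 and P28.

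Among 8 heart and skeletal muscle miRNAs, 6 had a log2 fold change below 0, beside 47.4% of all tested, with a median of −0.28 against 0.0083 over all tested, and 1, miR-208b, was called, beside 3.61% of all 249. The 4 with separate ranges were all lower at P7, beside 12.9% of all 249 separate in that direction. MiR-1 itself was at 360383 ± 47799 CPM at P3 and 356813 ± 20478 CPM at P7 (SD, n = 3 each), a log2 fold change of −0.014 (SE 0.12). MiR-499-5p, hosted by the myosin gene MYH7B, had a log2 change of −0.21 (SE 0.12, adjusted p = 0.315). MiR-133a-3p, transcribed together with miR-1, had one of 0.13 (SE 0.12, adjusted p = 0.539).

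MiR-206, best known from skeletal muscle, was scarce, at 16.9, 29.3 and 39.5 CPM at P3 and 11.1, 9.996 and 13.5 CPM at P7. Its P7 libraries were all below its P3 libraries. The log2 fold change of −1.31 (SE 0.32) had an adjusted p of 0.0512, just past the threshold, and miR-206 passed without replicate 6 of P3 (−1.02). MiR-133b, whose precursor neighbours that of miR-206, was separate between the ages too, with a log2 change of −0.34 (SE 0.15, adjusted p = 0.179).

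All 7 tested miRNAs of the leukocyte list had a log2 fold change above 0, beside 131 of all 249 (52.6%), with a median of 0.61. Only miR-342 was called, beside 3.61% of all 249. Ranges were separate for 5 of the 7, all higher at P7, beside 16.5% of all 249. MiR-155-5p, induced in activated immune cells, was at 56.4, 47.1 and 35.8 CPM at P3 and at 70.6, 71.8 and 91.6 CPM at P7 (log2 fold change 0.74, SE 0.22, adjusted p = 0.0672). MiR-150, of mature lymphocytes, and miR-146a-5p, a brake on innate immune signalling, had log2 fold changes of 0.61 and 0.68 (adjusted p = 0.152 for both). Without replicate 6 of P3 that of miR-146a-5p was 0.42, and without replicate 5 of P3 that of miR-150 was 0.39. A set of 5 leukocyte markers, which holds both arms of miR-142 and of miR-155 and miR-150 and leaves out miR-342 and miR-146, summed to 153 to 155 CPM at P3 and 214 to 230.3 CPM at P7.

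Of the 3 tested miRNAs of the erythroid list, miR-486 was the member called, beside 3.61% of all 249. MiR-451 was at 1129, 2026 and 1995 CPM at P3 and at 2362, 2283 and 1448 CPM at P7, and miR-144 at 22.8, 43.7 and 46.0 CPM and at 38.3, 62.0 and 10.8 CPM. These red cell miRNAs, made from neighbouring precursors, overlapped between the ages, with log2 fold changes of 0.24 (SE 0.26) and 0.00083 (SE 0.50). When any single library was left out, that of miR-451 ran from −0.016 to 0.44 and that of miR-144 from −0.59 to 0.42. The summed erythroid level was 1631 to 2803 CPM at P3 and 2635 to 3952 CPM at P7. The part of blood cells in the miR-486 and miR-342 results was not tested.

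Among 13 tested miRNAs of the imprinted DLK1-DIO3 cluster, which holds many miRNA genes, 12 had a log2 fold change above 0, beside 52.6% of all tested, with a median of 0.51, and none was called. At an adjusted p under 0.05 without replicate 6 of P3, 4 were called, all higher, beside 24.9% of all 249 called in that fit and 15.3% called higher. MiR-369 was at 18.2, 18.7 and 17.7 CPM at P3 and at 32.1, 36.7 and 26.0 CPM at P7 (log2 fold change 0.80, SE 0.20, adjusted p = 0.0512). The table repeats its row for the same precursor, and both rows were summed as divided reads, so its levels would be lower by a factor of 2 if the repeat holds the same reads. MiR-136 was the exception in direction, at 10.4, 11.8 and 10.6 CPM and then 7.44, 7.40 and 4.98 CPM (log2 fold change −0.71, SE 0.25, adjusted p = 0.133).

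Of the miR-15 family, known in mice for holding back the cell cycle of cardiomyocytes after birth, 7 of 8 tested members were above 0, beside 52.6% of all tested, with a median of 0.28, and none was called. MiR-195 was the member with separate ranges, beside 16.5% of all 249 that were separate and higher, at 51.8, 51.9 and 35.8 CPM at P3 and 73.1, 69.0 and 55.0 CPM at P7 (log2 fold change 0.50, SE 0.21, adjusted p = 0.176). MiR-497, its neighbour, had a log2 fold change of 0.50 (SE 0.27) with overlapping ranges, and of 0.28 without replicate 6 of P3 and 0.32 without replicate 4 of P7. MiR-16, the most abundant of the family, had one of 0.20 (SE 0.14).

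The miR-17 family clusters, known for promoting growth, held no call. In the miR-106a to miR-363 cluster, miR-20b was at 30.6, 23.7 and 33.4 CPM at P3 and 65.9, 77.0 and 40.4 CPM at P7 (log2 fold change 1.07, SE 0.27, adjusted p = 0.0512). MiR-106a and miR-363 had log2 fold changes of 0.85 and 0.61, and miR-19b and miR-92a ones of −0.011 and −0.059. The median of this cluster was 0.61. That of the miR-17 to miR-92a cluster was −0.011, with members from −0.40 to 0.51. The value of miR-363 was 0.36 without replicate 5 of P7 and 0.84 without replicate 6 of P3. The difference between the clusters was not tested. The mature miR-19b and miR-92a can come from both.

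The remaining lists held no call. All 4 tested members of the miR-181 family were below 0 (median −0.27). The 9 tested let-7 names, which include both arms of let-7d, had a median of 0.075. The 13 names of the miR-29 and miR-30 families, which include 3p arms of miR-30 miRNAs, had one of −0.049. The 9 vascular names had a median of 0.042, and the 6 fibroblast names one of −0.048. The 9 of the miR-424 to miR-450 cluster had a median of −0.023, and the 8 of miR-23, miR-24 and miR-27 one of −0.035. In this last list miR-27b-3p, seventh in abundance, was at 34695, 37561 and 27970.3 CPM at P3 and 22302, 25616 and 22646 CPM at P7 (log2 fold change −0.51, SE 0.14, adjusted p = 0.0594). The neural list had a median of 0.50 over 6 names, 3 of which (miR-9, miR-9-1 and miR-9-2) repeat the same counts, with a log2 fold change of 0.63 (adjusted p = 0.0594). The 7 of miR-99, miR-100, miR-125 and miR-10 had a median of −0.054, the 4 metabolic miRNAs one of −0.11, and the 3 of liver and gut one of 0.043. MiR-34a, the tested member of its family, had a log2 fold change of −0.20. The 4 most abundant let-7 miRNAs (let-7f, let-7g, let-7i and let-7a) lay between −0.12 and 0.075, miR-181a was at −0.43 (adjusted p = 0.177) and miR-99a at −0.63 (adjusted p = 0.104). Without replicate 6 of P3 the list medians changed sign for let-7 (−0.041), for miR-23, miR-24 and miR-27 (0.039), for miR-99, miR-100, miR-125 and miR-10 (0.12) and for the metabolic list (0.037). Those of the miR-29 and miR-30 families (−0.19), the fibroblast list (−0.12) and the miR-424 to miR-450 cluster (−0.076) moved farther below 0, as did the value of miR-34a (−0.39), and that of liver and gut was 0.028. MiR-429 of the miR-200 family had at most 7 counts and was not tested. MiR-223, which was set as a leukocyte marker, matched no name in the small RNA table and so is missing from the leukocyte sum.

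**Figure D4:**
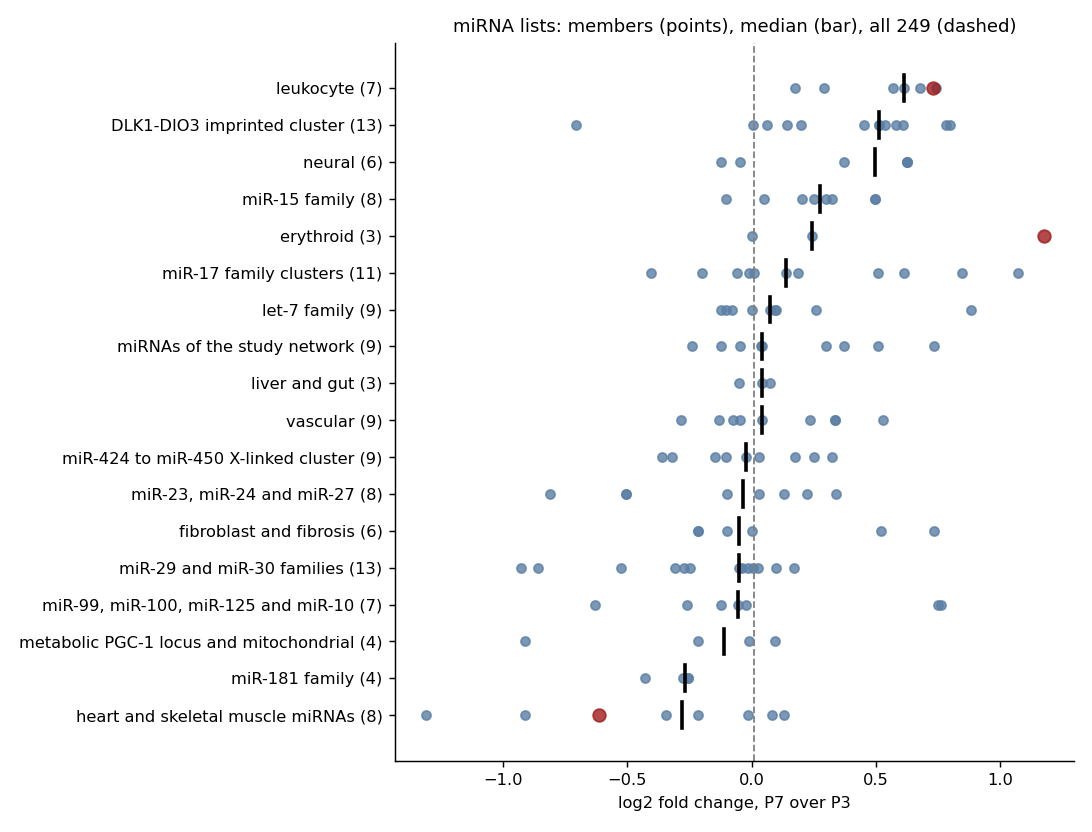
Log2 fold change, P7 over P3, of each tested miRNA (points) in the lists with at least 3 tested members, whose number is in brackets, with the list median as a black bar and the median of all 249 (0.0083) as a dashed line. Red points are the called miRNAs of these lists, miR-486, miR-342 and miR-208b, and all 7 leukocyte points lie to the right of 0.

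The 53 further miRNAs that passed without replicate 6 of P3 include abundant and well-known ones, and they are given with all 6 libraries in view. MiR-21, induced by stress and injury in many tissues, was at 31779.9, 36423 and 55443 CPM at P3 and 62865, 60637 and 53774 CPM at P7. Replicate 6 of P3 exceeded a P7 library, and the log2 fold change was 0.52 (SE 0.20, adjusted p = 0.137) with it and 0.79 without. Over the fits that left out any single library, the value of miR-21 ran from 0.33 to 0.79. MiR-214 was at 109, 88.3 and 186 CPM and then 201, 190.1 and 245 CPM (0.73, SE 0.27, adjusted p = 0.137), and 1.10 without that library.

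MiR-210, the main target miRNA of hypoxia-inducible factor, was at 147, 137 and 79.4 CPM at P3 and 70.1, 79.2 and 77.0 CPM at P7. Again replicate 6 of P3 sat beside the P7 libraries, and the log2 fold change was −0.69 (SE 0.24, adjusted p = 0.115) with it and −0.91 without. MiR-139-5p, hosted by the phosphodiesterase gene PDE2A, was at 295, 241 and 613 CPM and then 733, 742 and 704 CPM (0.93, SE 0.31, adjusted p = 0.109), and 1.44 without replicate 6 of P3.

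A wide gap within P3 was seen for let-7d-3p, at 28.3, 21.5 and 144 CPM at P3 and 116, 119.6 and 115 CPM at P7. Its other arm, let-7d-5p, was at 289.6, 207 and 179.6 CPM and then 217, 249 and 258 CPM, so the 2 arms did not move together. The log2 fold change of let-7d-3p was 0.88 (SE 0.60, adjusted p = 0.390) over all libraries and 2.24 without replicate 6 of P3. For 39 of the 62 miRNAs called without that library (62.9%), its level was nearer to the P7 mean than to that of the other P3 libraries, beside 57.4% of all 249.

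**Figure D5:**
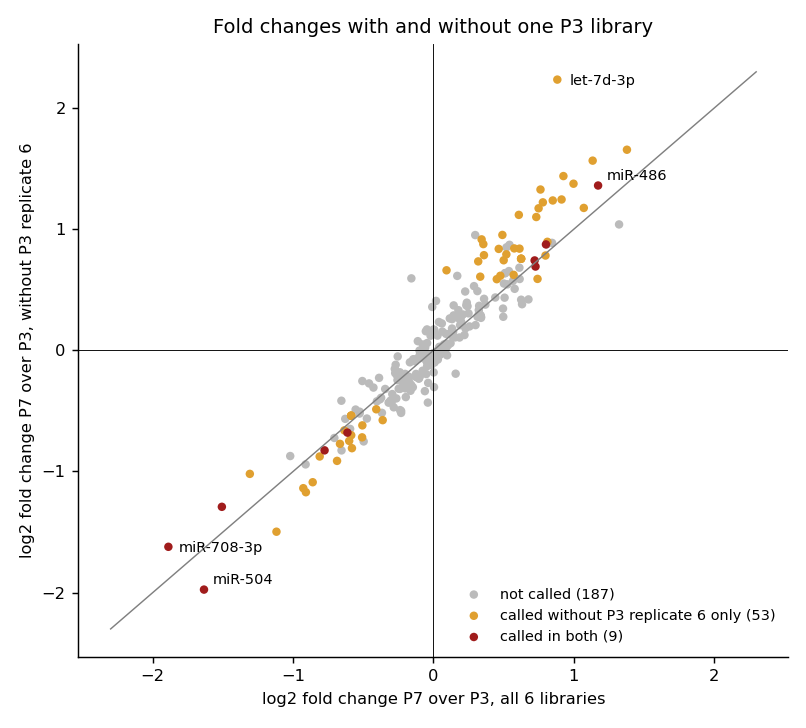
Log2 fold change of each of 249 miRNAs over all 6 libraries (horizontal) and without replicate 6 of P3 (vertical), with the line of equal values in grey. The 9 red points passed in both fits and the 53 orange points only without that library, and let-7d-3p lies farthest from the line, at 0.88 and 2.24.

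Both arms were tested in 49 pairs of a 5p and a 3p name, and their ratio within a library needs no scaling between libraries. The 5p to 3p ratio was separate between the ages for 17 of the 49 pairs (34.7%), with 10 shifted towards the 5p arm at P7 and 7 towards the 3p arm. An exact permutation test of 3 libraries against 3 cannot give a p below 0.1, so these are descriptions. MiR-24-3p and miR-30c-5p each stand in 2 pairs, and some names pool several precursors. For miR-151 the log2 ratio was −5.72, −6.10 and −6.11 at P3 and −5.23, −5.05 and −4.42 at P7. The called 5p arm is the minor one, since miR-151-3p was at 5303 ± 986 CPM at P3 and 4400.5 ± 885 CPM at P7 (SD, n = 3 each). The log2 change of miR-151-3p was −0.27 (SE 0.19, adjusted p = 0.408), and between −0.44 and −0.12 when any single library was left out.

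For miR-148a the log2 ratio was −9.33, −9.62 and −9.19 at P3 and −8.90, −8.50 and −8.13 at P7. Here the major 3p arm fell, while miR-148a-5p was at 76.8 ± 4.57 CPM and 81.8 ± 11.1 CPM (SD, n = 3 each), a log2 fold change of 0.090 (SE 0.17). MiR-425 shifted towards its 5p arm as well, with a mean log2 ratio of 1.61 ± 0.23 at P3 and 2.09 ± 0.26 at P7 (SD, n = 3 each). For miR-708 both arms fell and were of like abundance, 10.5 CPM for the 5p arm and 11.3 CPM for the 3p arm over all 6 libraries.

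Apart from miR-148a-3p, none of the 10 most abundant miRNAs was called. The log2 fold changes of miR-1, miR-143-3p, miR-30d, miR-30e-5p, miR-30a-5p, miR-26a and miR-126-3p lay between −0.24 and 0.10, within about 2 SE of 0, and those of miR-21 and miR-27b-3p are given above. Names of the miRNAs in the circRNA network that the study drew were matched without regard to arm. The table lists miR-18a, miR-214, miR-15a, miR-215 and miR-132 with no arm, so these values may belong to another arm than the network's, and both arms of miR-140 were taken. None of the 9 names tested was called, and their median was 0.043, or 0.17 without replicate 6 of P3. Not tested were miR-31, with at most 2 counts in a library, miR-105-1, with at most 5, and miR-105-2, with 0. MiR-197 of the network matched no name. Ranges were separate for 3 of them, all higher at P7, beside 29.3% of all 249 that were separate and 16.5% that were separate and higher. These were miR-7 (log2 fold change 0.37, SE 0.16), miR-18a (0.51, SE 0.19) and miR-214, which also passed without replicate 6 of P3. The value of miR-7 ran from 0.22 to 0.49 when any single library was left out.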

How the data were processed

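Small RNA libraries were made by CD Genomics with a NEBNext Small RNA kit from heart RNA. The authors deposited expected counts, with a row for each mature miRNA and precursor, and a read that fits several precursors is divided among their rows. The aligner, counter and build for small RNA are not given in the sources used here. Rows were summed per mature name (486 rows, 411 names, 62 with several rows) and rounded. Names that repeat the same counts (miR-9, miR-9-1 and miR-9-2, and likewise miR-218, miR-218-5p and miR-218b, and miR-490 and miR-490-3p) were kept, so the 249 names hold 244 distinct sets of counts. The column numbers 4 to 6 name the replicates. The labels give only the age of a column. Same-numbered P3 and P7 libraries came from different animals, and their deviations from the age means correlated at −0.11, 0.07 and 0.07.

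The main test was edgeR 4.0.16 (quasi-likelihood, TMM scaling, at least 10 counts in 3 of 6 libraries, adjusted p under 0.05, Benjamini-Hochberg) in R 4.3.3. It was also run on simulated data. The changes planted there were larger than several of those called here, and no simulated library was made to stand apart. DESeq2 1.42.0 and limma 3.58.1 served as alternatives. Log2 CPM used a prior count of 2, and arm ratios a pseudocount of 0.5. Precursors were taken as neighbours within 10000 bases in RefSeq's gene table of Sscrofa11.1, in which 315 of 382 matched. The rule for names covers the called miRNAs, the 10 most abundant, those of the study's network and, of each of 22 lists, the called and up to 4 abundant members, 80 in all, and the text prints only some of them. A further 19 were chosen after their values were seen, for separate ranges, a direction, a precursor or family shared with others, or the difference that replicate 6 of P3 made. Members and lists were chosen with earlier results of these data known. Depth was 2921132 to 5664506 counts, and p-values measure the spread between 3 animals per age.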

Additional observations from a re-analysis of the deposited data

How the results depend on the processing

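The number of miRNAs called between P3 and P7 was 9 in the report, with 4 higher and 5 lower. Library totals alone gave 9 and names of identical counts merged gave 9, each with 5 higher and 4 lower. The number was 10 with the largest row per name, 11 with at least 100 counts, and 6 with no filter (1 higher and 5 lower). It was 15 with DESeq2's size factors in edgeR, 18 in a fit over all 12 cd libraries, 25 with limma voom, 28 with every pair of mature miRNA and precursor as its own row, 35 with DESeq2's test, and 60 with the study's circRNA cutoffs on the unadjusted p and fold change. Leaving out each library in turn gave 0 to 62. With the column number as a replicate block, 0 passed edgeR's test and 60 had an unadjusted p under 0.05, and these numbers do not pair animals. The median log2 change over all miRNAs tested was −0.0248 with DESeq2's size factors and 0.087 with library totals, and −0.00602 to 0.039 when 1 library was left out. The share of the variance between the ages was 38.8% with a prior count of 0.5 and 43.6% with at least 100 counts (exact permutation p = 0.1 for both). Each of the 9 kept its direction in every alternative that tested it. For the 80 miRNAs of the naming rule and 19 others printed, 1441 values over these fits kept direction and call, 56 lost and 49 gained a call, and 105 that were not called changed sign. The cause of these differences was not tested. Depth limits the arms of miR-708, which had 19 to 25 counts in the P7 libraries.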
